A study of Mus musculus with 6 samples.

Results

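Interferon-stimulated genes are the genes that cells switch on when interferons, the cytokines of antiviral defence, bind their receptors. A list of 41 such genes was examined here in mouse erythroblasts, the nucleated precursors of red cells. A gene was measured where the array held a probe set annotated to its symbol alone. This left 36 of the 41 genes, among 12393 genes in all, and the 36 genes had 53 probe sets. Ddx58, Isg15, Xaf1, Ifi44 and Ifi27 were not analysed here as genes. The cells came from 3 samples of mice carrying a transgene for mutant RPS19 with the change R62W, and from 3 samples of wild type mice. RPS19 is a protein of the small ribosomal subunit that is often mutated in Diamond-Blackfan anaemia, a congenital shortage of red cell precursors. All 6 samples were FVB/N bone marrow cells sorted on CD71, the transferrin receptor, and each was run on 1 Affymetrix array. No source used here gives the promoter behind the transgene, the number of mouse lines or the age of the mice. Whether each sample is a separate animal is not stated, so p-values reflect only how far these samples spread, which may in part be technical.

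Type I interferon signals through the kinases Jak1 and Tyk2 to a complex with Stat2 and Irf9, which binds the interferon-stimulated response element of target promoters. The products include sensors of viral nucleic acid, proteins that block viral entry, translation or budding, and parts of the machinery that presents peptides on MHC class I. In erythroid cells these genes are studied because interferons slow red cell production during infection and inflammation.

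The arrays of the groups also differed in array-wide measures. Over all genes, the SD of the log2 difference between a pair of arrays was 0.34 to 0.51 within the mutant group and 0.14 to 0.18 within the wild type group. Spiked polyadenylated control RNAs averaged 11.58, 13.43 and 13.47 on mutant replicates 1, 2 and 3, and 8.74 to 8.77 on wild type arrays (log2). The 3' actin control probe set exceeded the 5' one by 1.58 to 1.88 on mutant arrays and by 1.26 to 1.37 on wild type arrays. Mutant replicate 3 was also unlike the other 5 arrays in Xist (5.78, against 11.38 to 12.07) and in the Y-linked Eif2s3y (8.34, against 2.23 to 2.45). These are values of male cells, and those of the other arrays are of female cells. Mutant replicate 3 was therefore not from the same animal as the other mutant samples. Whether the other samples were separate animals stays unknown. The spike and actin values did not overlap between the groups, so their part in the results cannot be told apart from that of the mutant transgene. The part of the other differences in the results was not tested. Of the defining erythroblast markers, Klf1 read 11.25 on average in mutant samples and 11.64 in wild type samples, and Gata1 9.44 in mutant and 9.32 in wild type samples. The means of the other 10 measured markers of the list were 8.43 to 11.80 in mutant and 8.32 to 12.14 in wild type samples, apart from that of Hba-a1, an alpha globin gene, whose probe set read 3.03 in mutant and 3.16 in wild type samples. Transcripts of other marrow lineages were present too. Mpo, which marks neutrophil precursors, averaged 12.90 in mutant samples and 13.12 in wild type samples, Csf1r of monocytes 9.70 in mutant samples and 9.99 in wild type samples, and Cd79a of B cells 6.80 in mutant samples and 5.94 in wild type samples. In such bulk samples fewer cells of a type and less RNA per cell cannot be told apart.

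The interferon-stimulated genes differed in both directions, and none of them passed the test over genes. In the limma fit with 1 probe set a gene, 0 of the 36 genes passed an adjusted p under 0.05, higher or lower, where 0.331% of all genes did. The mutant mean was lower for 21 of the 36 (58.3%, beside 50.9% of all genes). At an adjusted p under 0.10 Ifit2 and Ifitm3 passed, 2 of the 36, beside 3.09% of all genes. An unadjusted p under 0.05 was found for 11, 3 higher and 8 lower in the mutant. The higher ones were 8.33% of the 36, beside 9.11% of all genes, and the lower ones 22.2%, beside 8.30%. In the limma fit over all 22626 probe sets, 3 of the 53 passed (5.66%, beside 2.33% of all probe sets). That of Ifit2 rose, beside 0.941% of all probe sets, and that of Ifitm3 and the dimmer of the Tapbp probe sets fell, beside 1.39%. The median log2 difference, mutant minus wild type, was -0.07 over the 36 genes and -0.004 over all genes. The single differences ran from -0.68 for Ifitm3 to 0.65 for Ifit2. For 13 genes every mutant value lay on 1 side of every wild type value, 3 higher and 10 lower (36.1%, beside 24.7% of all genes). The lower ones were 27.8% of the 36, beside 12.7% of all genes. The higher ones were 8.33% of the 36, a smaller share than the 1492 of all 12393 genes. Levels were low for 15 of the 36 genes, with a mean below the median gene of the array, among them Ifit1, Ifit3, Mx1, Oasl2, Iigp1 and Cxcl10. The counts changed with single arrays. Without mutant replicate 1, 7 of the 36 genes passed (19.4%, beside 9.54% of all genes). Without mutant replicate 3, 1 of the 36 passed, beside 1.61% of all genes. Without wild type replicate 1, 2 or 3 none of the 36 and no other gene of the array passed by limma, where 1415, 1255 and 1350 genes had an unadjusted p under 0.05. The 3 probe set calls also went to 0 when any 1 of the wild type arrays was left out, and the Ifit2 call was lost without mutant replicate 2.

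**Figure D1:**
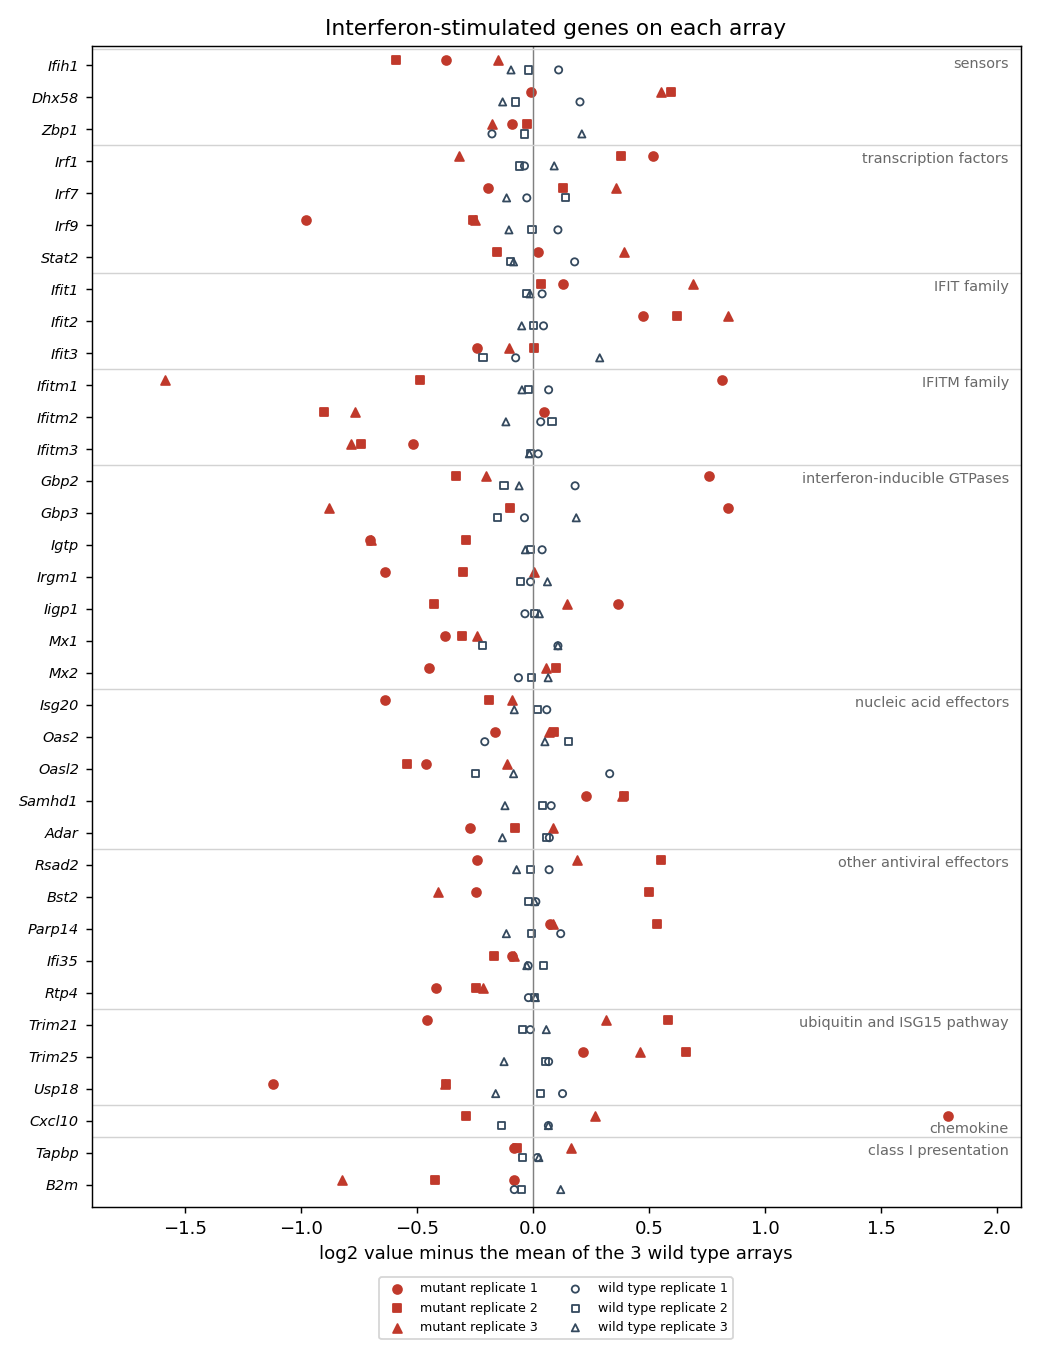
Each of the 36 genes on each of the 6 arrays, grouped by role. The x axis is the log2 value minus the mean of the 3 wild type arrays, with filled symbols for mutant and open symbols for wild type replicates. Ifitm3, Igtp and Usp18 lie left of all wild type values and Ifit2, Trim25 and Samhd1 right of them, while the mutant arrays of Ifitm1, Gbp3 and Cxcl10 spread over 1.72 to 2.40 log2 units.

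Promoter windows show the element through which many of these genes are known to respond. RefSeq windows of 300 bases (GRCm38.p6, 250 bases before the annotated start site and 50 after it) were at hand for 27 of the 36 genes, 35 windows in all. The core of this element, searched as GAAA, any 2 bases and a second GAAA on both strands, with overlapping matches kept, was in the windows of 15 of the 27 genes. By window this was 42.9%, beside 3.44% of all 32851 windows. Among the 15 genes with the paired GAAA motif, 6 had a higher and 9 a lower mutant mean (median log2 difference -0.05). Among the 12 genes whose windows lacked it, 6 had a higher and 6 a lower mutant mean (median -0.04). A match of letters is a description of the window and does not show a bound site. The windows printed next are those of the 6 genes with this motif that had the lowest p, so that its place can be seen. They lie at chr7:141010695-141010994 (minus strand) for Ifitm3, chr11:58199306-58199605 (plus) for Igtp, chr2:62646206-62646505 (minus) for Ifih1, chr2:122147437-122147736 (plus) for B2m, chr7:140955912-140956211 (minus) for Ifitm2 and chr11:48871371-48871670 (minus) for Irgm1. Each is written in the direction of transcription, and capitals mark the paired GAAA motif.
Ifitm3: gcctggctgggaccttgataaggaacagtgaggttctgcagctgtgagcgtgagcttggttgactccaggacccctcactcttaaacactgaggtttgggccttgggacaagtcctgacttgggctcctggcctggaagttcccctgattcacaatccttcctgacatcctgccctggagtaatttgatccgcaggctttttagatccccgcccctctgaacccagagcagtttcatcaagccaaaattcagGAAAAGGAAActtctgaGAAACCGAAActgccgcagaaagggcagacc
Igtp: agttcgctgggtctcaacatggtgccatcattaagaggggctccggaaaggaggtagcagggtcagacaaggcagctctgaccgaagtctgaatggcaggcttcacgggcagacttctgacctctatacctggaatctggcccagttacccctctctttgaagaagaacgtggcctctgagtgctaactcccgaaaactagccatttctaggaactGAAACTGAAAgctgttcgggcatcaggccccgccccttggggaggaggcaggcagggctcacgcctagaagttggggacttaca
Ifih1: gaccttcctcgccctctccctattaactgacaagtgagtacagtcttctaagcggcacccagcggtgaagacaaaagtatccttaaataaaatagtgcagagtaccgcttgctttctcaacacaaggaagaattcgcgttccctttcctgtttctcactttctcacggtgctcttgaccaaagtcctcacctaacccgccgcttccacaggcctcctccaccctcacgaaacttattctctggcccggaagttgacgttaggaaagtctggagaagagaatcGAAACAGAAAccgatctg
B2m: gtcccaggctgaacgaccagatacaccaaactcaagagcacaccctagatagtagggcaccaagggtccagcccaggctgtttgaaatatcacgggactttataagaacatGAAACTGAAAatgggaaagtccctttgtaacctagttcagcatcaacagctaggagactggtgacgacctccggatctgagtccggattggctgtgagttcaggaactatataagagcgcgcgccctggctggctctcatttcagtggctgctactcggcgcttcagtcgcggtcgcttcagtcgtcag
Ifitm2: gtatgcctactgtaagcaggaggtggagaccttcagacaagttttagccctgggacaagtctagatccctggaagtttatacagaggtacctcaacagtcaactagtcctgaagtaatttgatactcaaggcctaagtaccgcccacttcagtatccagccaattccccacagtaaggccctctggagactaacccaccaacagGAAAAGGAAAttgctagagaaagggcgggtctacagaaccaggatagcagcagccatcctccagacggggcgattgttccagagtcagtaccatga
Irgm1: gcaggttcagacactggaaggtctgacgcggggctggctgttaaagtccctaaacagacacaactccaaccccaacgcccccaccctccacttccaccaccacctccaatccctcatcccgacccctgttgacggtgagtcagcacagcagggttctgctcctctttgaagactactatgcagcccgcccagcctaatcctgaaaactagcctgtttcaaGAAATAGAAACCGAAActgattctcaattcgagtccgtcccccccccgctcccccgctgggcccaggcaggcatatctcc
Counted from the start site, the motif begins at positions 3 and 20 in the Ifitm3 window, and overlapping matches begin at -30 and -24 in that of Irgm1. The other windows hold 1 match each, which begins at position -34 in Igtp, -46 in Ifitm2, -139 in B2m and 33 in Ifih1. All 6 of these genes, chosen by p from these same data, had a lower mutant mean, while 6 of the 15 genes with the motif had a higher one. Neither window of Ifit2, the gene with the highest difference, held the motif. A link of the motif with direction was not tested.

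The genes that encode the interferon-induced transmembrane proteins, which sit in endosomal membranes and hinder the fusion of viruses, all had lower mutant means. Ifitm3 read 8.39, 8.17 and 8.13 on the mutant arrays, against 8.94, 8.90 and 8.90 on the wild type arrays (log2). The groups did not overlap, and the wild type arrays lay close together. Its difference was -0.68 ± 0.10 (log2, SE; 1.60-fold higher in wild type), with an adjusted p of 0.053 over genes and 0.026 over probe sets by limma, so that it fell in the probe set fit alone. Leaving out mutant replicate 1 gave -0.76 (adjusted p = 0.0061), and leaving out mutant replicate 3 gave -0.63 (adjusted p = 0.0496). The difference was -0.65 without mutant replicate 2 (adjusted p = 0.13). It was -0.67 to -0.69 without single wild type replicates (adjusted p of 0.26 to 0.30), so the p moved more than the difference. Ifitm2 read 9.83, 8.88 and 9.01 on the mutant arrays, against 9.81, 9.86 and 9.66 on the wild type arrays. Mutant replicate 1 lay among the wild type values and the other mutant arrays lay below all of them. The difference was -0.54 ± 0.24 (adjusted p = 0.30), while leaving out mutant replicate 1 gave -0.83 ± 0.10 (adjusted p = 0.0073). Ifitm1 spread the most of the 36 genes over the mutant arrays, with 8.0, 6.70 and 5.60, against 7.26, 7.17 and 7.14 on the wild type arrays. Mutant replicate 1 was above and the other mutant arrays were below every wild type value, and the difference of -0.42 had a 95% confidence interval of -1.64 to 0.80.

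Markers of other marrow cells also varied over the mutant arrays, not all in 1 order. The summed linear level of 12 neutrophil lineage markers was 50752, 23194 and 16870 on mutant replicates 1, 2 and 3, against 31648 to 33995 on the wild type arrays. None of the 12 passed the test by limma (0 also at an unadjusted p under 0.05), and the order of the mutant arrays was that of Ifitm1. The sums of 8 T and NK cell markers (771, 495 and 345, against 432 to 475 on the wild type arrays) and of 5 progenitor markers (3832, 3042 and 2691, against 3290 to 3521) ran in the same order. The T and NK order rested on the brightest marker of that list, Nkg7, with 9.25, 7.689 and 7.475 on the mutant arrays (log2). Gzma and Klrd1 of the same list were instead highest on mutant replicate 2, at 6.70 and 6.52. The sum of 14 monocyte and macrophage markers was 2275 to 4503 in mutant and 4105 to 4492 in wild type samples, and that of 10 B lineage markers 867 to 3450 in mutant and 800 to 872 in wild type samples. None of these passed the test by limma, with 3 monocyte and 4 B lineage markers at an unadjusted p under 0.05. Sums of 6 dendritic cell markers were 235, 298 and 150 on the mutant arrays, against 268 to 279 on the wild type arrays. Of these 6, 5 had a lower mutant mean (50.9% of all genes did) and none passed the test. Cd209a had the lowest p of them, at -0.93 ± 0.14 (log2, SE, adjusted p = 0.052 by limma), without overlap of the groups. The 6 megakaryocyte markers all had higher mutant means, Gp1bb by only 0.003 (log2), with sums of 529 to 864 in mutant and 443 to 458 in wild type samples. Only Vwf passed the test, and it rose by 1.48 ± 0.19 (log2, SE; adjusted p = 0.036 by limma). Pf4 read 9.02, 7.61 and 7.63 on the mutant arrays, against 7.631 to 7.665 on the wild type arrays. Ppbp read 5.44, 3.12 and 2.77, against 2.78 to 2.96, so both were high on mutant replicate 1 alone. Gp9 was lowest on that array, with 6.60, 7.11 and 7.44, against 6.65 to 6.95. The 12 erythroblast markers summed to 12837, 20964 and 21280 on mutant replicates 1, 2 and 3, against 18520 to 19849 on the wild type arrays. RMA values have no true 0, so none of the measured defining markers Mpo, Ltf, Csf1r, C1qa, Cd79a, Cd3e and Pf4 can be called absent. The part of other cells in the Ifitm values was not tested.

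**Figure D2:**
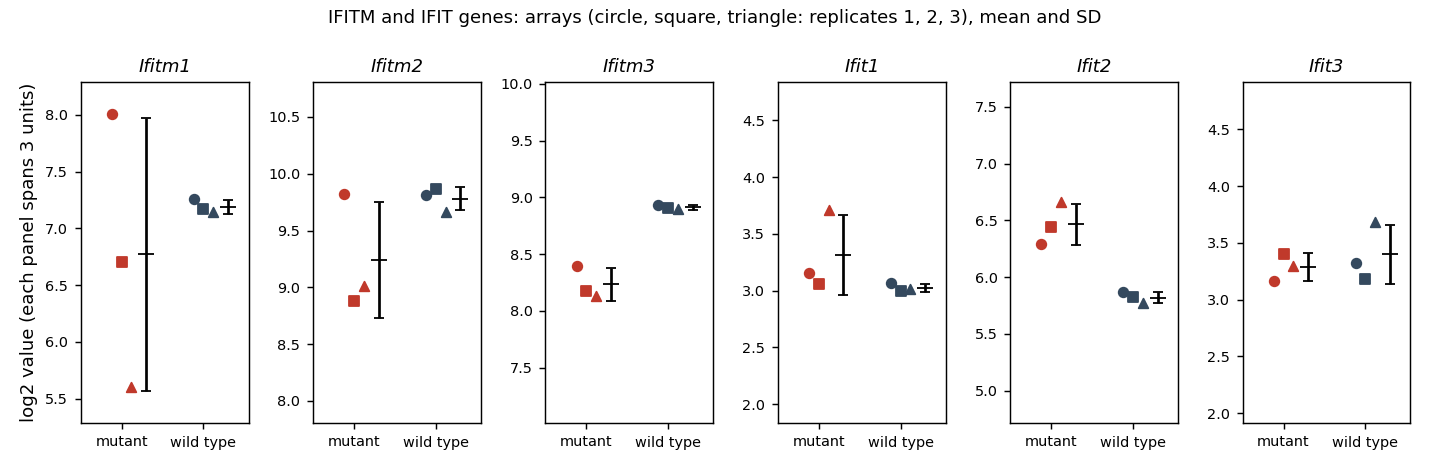
Levels of the IFITM and IFIT genes. The y axis is the deposited log2 value, each panel spans 3 log2 units, symbols are the single arrays of mutant (left) and wild type (right) samples, and bars are the mean and SD of 3 arrays. Ifitm3 and Ifit2 separate the groups in opposite directions, and Ifitm1 runs from 5.60 to 8.0 on the mutant arrays.

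The IFIT genes encode proteins that bind foreign RNA and block its translation, and only Ifit2 separated the groups. Ifit2 read 6.30, 6.44 and 6.66 on the mutant arrays, against 5.87, 5.82 and 5.77 on the wild type arrays (log2). The groups did not overlap. The difference was 0.65 ± 0.12 (log2, SE; 1.56-fold), with an adjusted p of 0.066 over genes and 0.039 over probe sets by limma, so that Ifit2 rose in the probe set fit alone. Ifit1 read 3.16, 3.06 and 3.71 on the mutant arrays, against 3.07, 3.0 and 3.01 on the wild type arrays, with mutant replicate 3 apart from the rest. Its difference was 0.28 (95% confidence interval -0.12 to 0.69). Ifit3 read 3.16 to 3.41 in mutant and 3.18 to 3.69 in wild type samples, and the groups overlapped. Its difference was -0.11 (95% confidence interval -0.46 to 0.23). Ifit1 and Ifit3 both had a mean below the median gene of the array. With intervals that span 0, they cannot show whether the family shares a direction.

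The sensors of viral nucleic acid in the list were Ifih1, Dhx58 and Zbp1. Ifih1 encodes MDA5, which senses long double-stranded RNA, and read 7.07, 6.85 and 7.29 on the mutant arrays, against 7.55, 7.42 and 7.35 on the wild type arrays. The groups were just apart, and the difference of -0.37 ± 0.13 (log2, SE) had an adjusted p of 0.22. Dhx58 encodes LGP2, a regulator of the RNA sensors, and read 4.53, 5.13 and 5.09 on the mutant arrays, against 4.74, 4.46 and 4.41 on the wild type arrays. Mutant replicate 1 lay among the wild type values and the other mutant arrays lay above them. The difference was 0.38 ± 0.18 (adjusted p = 0.34), while leaving out mutant replicate 1 gave 0.57 ± 0.12 (adjusted p = 0.031). The dimmer Dhx58 probe sets differed by 0.13 and 0.07, both with overlap of the groups. Zbp1, whose protein recognises nucleic acid in the left-handed Z form, differed by -0.10 (95% confidence interval -0.38 to 0.19), and its groups overlapped. The dimmer Zbp1 probe set differed by -0.34 (95% confidence interval -0.65 to -0.02), also with overlap.

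Among the transcription factors, Irf9 stood lowest. The DNA-binding part of the type I interferon complex, it read 5.95, 6.67 and 6.68 on the mutant arrays, against 7.03, 6.92 and 6.82 on the wild type arrays. All mutant values were lower, that of replicate 1 by the widest margin, and the difference was -0.49 ± 0.20 (log2, SE; adjusted p = 0.27). Stat2, its partner, differed by 0.09 (95% confidence interval -0.29 to 0.46) and Irf7, which drives interferon alpha genes, by 0.10 (-0.26 to 0.46). The other Stat2 probe set differed by -0.22, with overlap of the groups. Irf1 read 7.23, 7.10 and 6.40 on the mutant arrays, against 6.68, 6.66 and 6.81 on the wild type arrays. Its mutant arrays lay on both sides of the wild type range, and the difference was 0.19 (95% confidence interval -0.30 to 0.69).

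Of 7 interferon-inducible GTPases, which attack the vacuoles of intracellular pathogens or trap viral particles, 2 had a higher and 5 a lower mutant mean. Igtp read 7.14, 7.55 and 7.14 on the mutant arrays, against 7.88, 7.83 and 7.80 on the wild type arrays. The groups did not overlap, and the difference was -0.56 ± 0.13 (log2, SE; 1.48-fold higher in wild type, adjusted p = 0.10). Irgm1, which restrains other GTPases of this family, read 6.31, 6.64 and 6.95 on the mutant arrays, against 6.93, 6.89 and 7.01 on the wild type arrays. Mutant replicate 3 lay within the wild type range and the others below it, and the difference was -0.31 ± 0.16 (adjusted p = 0.38). Mx1, a dynamin-like GTPase, differed by -0.31 ± 0.12 (adjusted p = 0.25) without overlap of the groups, and Mx2 by -0.10 (95% confidence interval -0.46 to 0.27). Gbp3 read 6.78, 5.84 and 5.06 on the mutant arrays, against 5.90, 5.79 and 6.13 on the wild type arrays. As with Ifitm1, its mutant arrays ran from above to below the wild type range, and the difference was -0.04 (95% confidence interval -0.94 to 0.85). Gbp2 read 4.83, 3.74 and 3.87 on the mutant arrays, against 3.94 to 4.25 on the wild type arrays, while Iigp1 differed by 0.03 (95% confidence interval -0.42 to 0.48). The dimmer probe set differed by -0.18 for Gbp2 and by -0.22 for Iigp1.

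Of 5 genes for proteins that act on nucleic acids or nucleotides, 1 had a higher and 4 a lower mutant mean. Samhd1, whose product degrades the building blocks of DNA, read 7.87, 8.03 and 8.02 on the mutant arrays, against 7.72, 7.68 and 7.52 on the wild type arrays. The groups were apart and the difference was 0.33 ± 0.10 (log2, SE; adjusted p = 0.17), but its other probe sets differed by -0.26, -0.25 and 0.09. On the mean of its 4 probe sets the difference was -0.02. Isg20, an exonuclease, read 9.64, 10.09 and 10.19 on the mutant arrays, against 10.34, 10.30 and 10.20 on the wild type arrays, with the groups just apart and a difference of -0.30 ± 0.15 (adjusted p = 0.36). Oasl2 differed by -0.37 ± 0.18 (adjusted p = 0.34). The 95% confidence interval was -0.30 to 0.30 for Oas2, whose product makes the messenger that activates RNase L, and -0.37 to 0.20 for Adar, which edits adenosine in double-stranded RNA and so keeps MDA5 from sensing the cell's own transcripts.

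The remaining antiviral effectors also went both ways. Rsad2 encodes viperin, which makes a chain-terminating nucleotide, and its brightest probe set read 10.07, 10.86 and 10.50 on the mutant arrays, against 10.38, 10.30 and 10.24 on the wild type arrays (difference 0.17, 95% confidence interval -0.27 to 0.62). Mutant replicate 1 was below the wild type range and the other mutant arrays were above it. The dimmer Rsad2 probe sets differed by -0.50 and -0.43, and mutant replicate 1 was the lowest of the 6 arrays on all 3 probe sets. Bst2, or tetherin, holds budding virions at the cell surface and read 7.17, 7.91 and 7.0 on the mutant arrays, against 7.39 to 7.43 on the wild type arrays. Mutant replicate 2 was the highest of the 6 and mutant replicate 3 the lowest. The B lineage sum was highest on mutant replicate 2, but above the wild type arrays on replicate 3 too (1677, against 800 to 872). The dendritic sum was above the wild type arrays on mutant replicate 2 alone and lowest on replicate 3. The part of B cells or dendritic cells in this was not tested. Rtp4, known as an interferon-induced inhibitor of flaviviruses, read 4.2, 4.37 and 4.40 on the mutant arrays, against 4.60, 4.62 and 4.63 on the wild type arrays (difference -0.29 ± 0.10, adjusted p = 0.19). The dimmer Rtp4 probe set differed by 0.05, with overlap of the groups. Ifi35 differed by -0.11 ± 0.09 (adjusted p = 0.56) and the ADP-ribosyltransferase gene Parp14 by 0.23 ± 0.15 (adjusted p = 0.48). Cxcl10, a chemokine for T cells, read 5.28 on mutant replicate 1, with 3.20 and 3.76 on replicates 2 and 3, against 3.36 to 3.56 on the wild type arrays. Its difference of 0.59 rested on that array and was -0.01 without it.

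The ubiquitin and ISG15 group held Usp18, which strips the ubiquitin-like ISG15 from proteins and damps the type I receptor, and the ubiquitin ligases Trim21 and Trim25. Usp18 read 5.19, 5.93 and 5.92 on the mutant arrays, against 6.43, 6.34 and 6.14 on the wild type arrays. The groups did not overlap, and the difference was -0.62 ± 0.21 (log2, SE; 1.54-fold higher in wild type, adjusted p = 0.20). Trim25 read 9.16, 9.60 and 9.40 on the mutant arrays, against 9.01, 8.99 and 8.81 on the wild type arrays, again without overlap (difference 0.45 ± 0.13, adjusted p = 0.16). Its other probe sets differed by -0.04 and 0.001. Trim21, a receptor for antibody-coated particles in the cytosol, read 5.44, 6.48 and 6.21 on the mutant arrays, against 5.89, 5.85 and 5.96 on the wild type arrays, while its other probe set differed by -0.25. Without mutant replicate 1 both ligases passed the test, Trim25 at 0.56 (adjusted p = 0.026) and Trim21 at 0.45 (adjusted p = 0.047).

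Class I presentation was represented by B2m, the light chain of all class I molecules, and Tapbp, or tapasin, which helps load their peptides. The brighter B2m probe set read 11.42, 11.08 and 10.68 on the mutant arrays, against 11.42, 11.45 and 11.62 on the wild type arrays. Mutant replicate 1 lay just below the lowest wild type array and the other mutant arrays lay farther down, with a difference of -0.44 ± 0.18 (log2, SE; adjusted p = 0.28). The other B2m probe set differed by -0.58 ± 0.17 (adjusted p = 0.12 over probe sets), without overlap. The probe sets of Tapbp disagreed. The brighter read 8.56, 8.57 and 8.80 on the mutant arrays, against 8.66, 8.59 and 8.66 on the wild type arrays, a difference of 0.005 (95% confidence interval -0.24 to 0.25). The dimmer read 5.99, 5.68 and 5.98 on the mutant arrays, against 6.87, 6.79 and 6.72 on the wild type arrays. It fell by 0.91 ± 0.12 in the probe set fit (1.88-fold higher in wild type, adjusted p = 0.017 by limma over all probe sets).

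**Figure D3:**
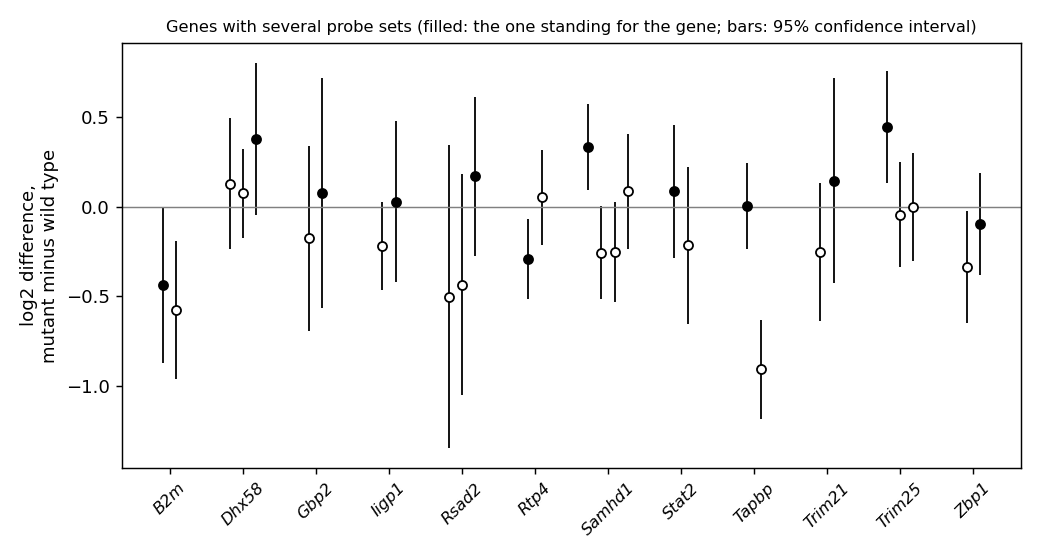
Log2 difference, mutant minus wild type, of each probe set of the 12 genes that have several. Filled points are the probe sets with the highest mean, which stand for the gene, and bars are 95% confidence intervals of the probe set fit. The Tapbp probe sets lie at 0.005 and -0.91, and those of Samhd1 and Rsad2 lie on both sides of 0.

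Disagreement between probe sets was frequent. Of the 12 genes with several probe sets, 9 had differences of both signs (75.0%, beside 52.8% of the 4956 genes of the array with several). No source used here says which stretch of a transcript each probe set reads. For B2m, Dhx58 and Zbp1 all probe sets had 1 sign.

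The mutant arrays differed among themselves more than the wild type arrays for most of these genes. The SD was the larger in mutant samples for 30 of the 36 genes (83.3%, beside 77.7% of all genes), with medians of 0.29 in mutant and 0.10 in wild type samples. Over all genes the medians were 0.18 in mutant and 0.088 in wild type samples. For 14 of the 36 the mutant arrays lay both above and below the wild type range (38.9%, beside 33.6% of all genes). Mutant replicate 1 was the lowest mutant array for 20 genes (55.6%, beside 42.2% of all genes) and the highest for 9 (25%, beside 33.1%). Those where it was highest included Ifitm1, Ifitm2, Ifitm3, Gbp2, Gbp3, Cxcl10 and B2m, and those where it was lowest included Irf9, Usp18, Isg20, Rsad2, Trim21 and Trim25. The median of the 36 genes relative to the wild type mean was -0.13, -0.12 and -0.08 on mutant replicates 1, 2 and 3.

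**Figure D4:**
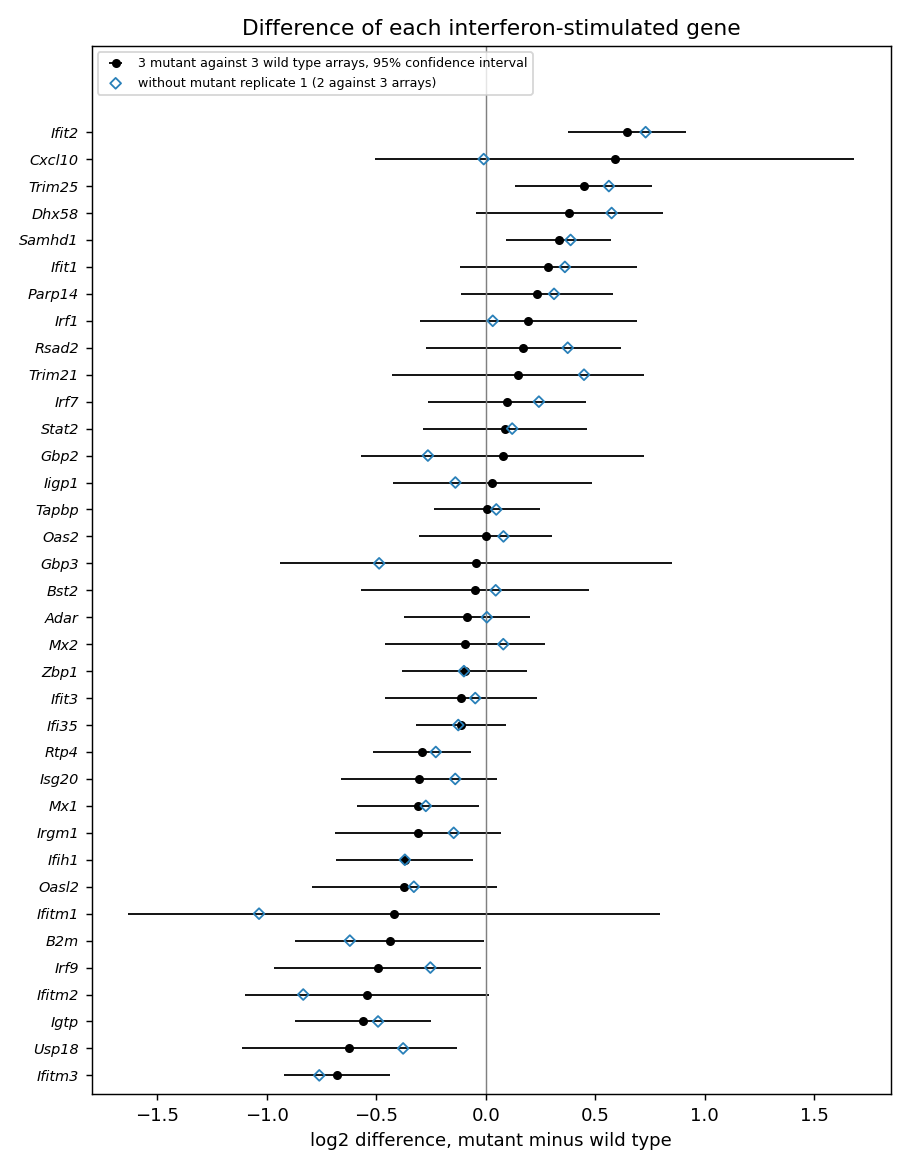
Log2 difference, mutant minus wild type, of each of the 36 genes with its 95% confidence interval (black, 3 against 3 arrays) and the difference without mutant replicate 1 (open diamonds, 2 against 3 arrays). The intervals of Ifitm3 (-0.92 to -0.44) and Ifit2 (0.37 to 0.92) lie farthest from 0, and Ifitm1, Cxcl10, Gbp3 and Gbp2 move most when that array is left out.

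**Figure D5:**
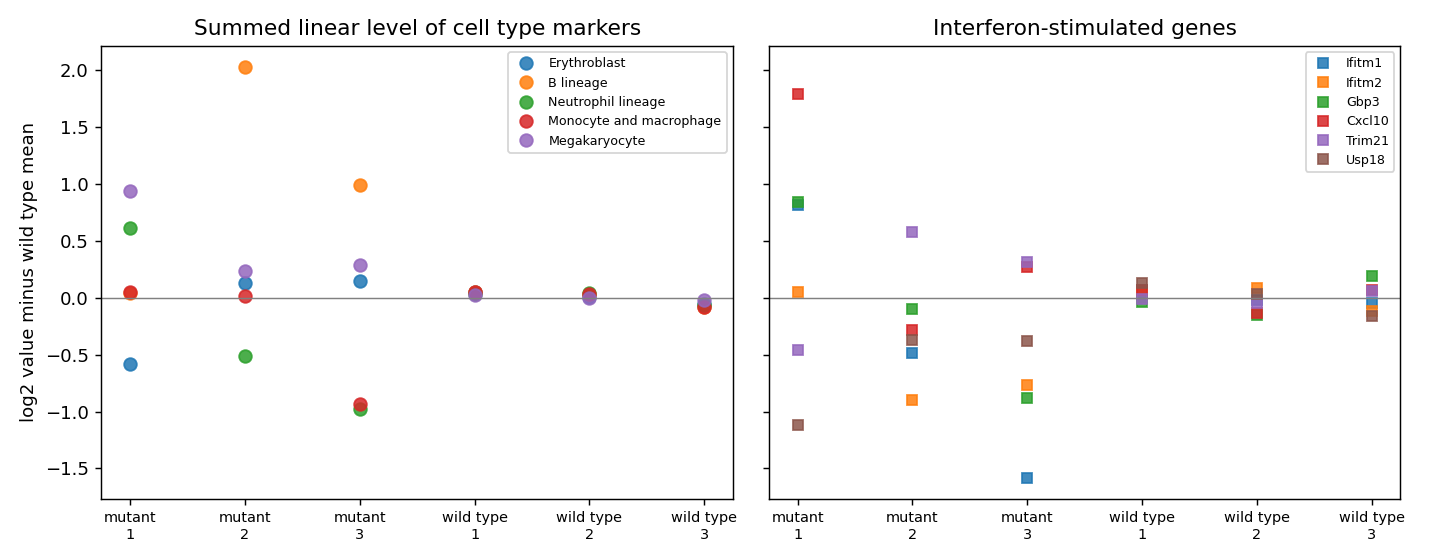
Summed linear level of cell type markers (left panel) and single interferon-stimulated genes (right panel) on each array, as log2 value minus the wild type mean. On mutant replicates 1, 2 and 3 the neutrophil lineage sum and Ifitm1 run from above to below the wild type arrays, while the B lineage sum is highest on mutant replicate 2.

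Further genes of the interferon pathway were listed by role, from ligands to targets. Of 103 measured, 0 passed the limma test over all genes, and the median was -0.07, beside -0.004 over all genes. A higher mutant mean was found for 34 and a lower one for 69 (67.0%, beside 50.9% of all genes). An unadjusted p under 0.05 was found for 22 (21.4%, beside 17.4% of all genes), 9 higher and 13 lower. Of all genes, 9.11% were higher and 8.30% lower at that p. The 4 ligand genes ran from -0.14 to 0.09, the 5 receptor genes from -0.22 to 0.08, and the 4 genes measured among receptor kinases and Stat factors from -0.16 to 0.28 (log2 differences, mutant minus wild type). Sensors and adaptors ran from -0.45 to 0.45, and the other interferon regulatory factors from -0.21 for Irf8 to 1.21 for Irf4, a factor of lymphocytes (adjusted p = 0.15), both named after their values were seen. Irf4 was highest on mutant replicate 2, as was the B lineage sum, and the part of B cells in it was not tested. Of the 8 genes with the lowest p, 2 were higher. These were Tap1, a subunit of the peptide transporter of class I presentation, at 0.45 ± 0.10 (log2, SE; adjusted p = 0.090), and Ube2l6, which conjugates ISG15, at 0.66 ± 0.16 (adjusted p = 0.11). The partner of Tap1 went the other way, with Tap2 at -0.51 ± 0.13. Lap3, an aminopeptidase, differed by -0.47 ± 0.10 (adjusted p = 0.088), Tlr3, the endosomal receptor for double-stranded RNA, by -0.45 ± 0.11, Nmi by -0.33 ± 0.09, the deubiquitinase gene Usp15 by -0.57 ± 0.15 and Pdia3, a chaperone of class I loading, by -0.60 ± 0.17. Class I presentation as a group had 2 of 11 genes with a higher and 9 with a lower mutant mean (median -0.16), where 50.9% of all genes had a lower one. The 9 included genes that hardly differed, with H2-K1 at -6.7e-05, Erap1 at -0.015 and H2-D1 at -0.042. The groups of Tap1 did not overlap, with 6.84 to 7.0 on the mutant arrays, against 6.36 to 6.50 on the wild type arrays.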

How the data were processed

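Total RNA of 3 mutant RPS19 and 3 wild type samples was labelled with biotin and run on 1 Affymetrix array each. The authors deposited log2 intensities. The submitters' processing notes name GCOS, Affymetrix Expression Console and RMA, a method that corrects background, quantile normalises and summarises probes. No versions are named in them. Of 22690 probe sets, 64 controls were left out and 22626 tested. The platform annotation named 20380 of these with 1 symbol. The brightest probe set over 6 arrays stood for each of 12393 genes, and all 36 symbols matched RefSeq.

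Mutant was set against wild type with limma 3.58.1 in R 4.3.3 (lmFit, eBayes, two-sided, no covariates), with Benjamini-Hochberg adjustment over all genes or all probe sets and a threshold of 0.05. Errors are the SD of 3 arrays or limma's SE, and confidence intervals cover 95%. Every measured gene of the list is named, with the called pathway genes and the 8 of lowest p, and promoter windows are printed for the 6 genes of lowest p that hold the searched motif. Erythroid and other marker lists are given by level and count. The genes and lists were chosen with earlier results of these data known. The fit was tested on simulated data. Alternatives covered the variance prior, array weights, normalisation, a filter, the replicate block, the threshold, the choice of probe set and single arrays. The number of arrays limits the precision.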

Additional observations from a re-analysis of the deposited data

How the results depend on the processing

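The count of 0 higher and 0 lower genes of the list, the 41 called genes of the array and the 1 higher and 2 lower probe sets of the list changed under many settings. Of the list's genes, 1 lower was called with an intensity trend, with the repeated quantile normalisation and on the gene's mean over its probe sets (each time Ifitm3), 1 higher and 1 lower with the filter on dim probe sets and at an adjusted p under 0.10 (Ifit2 and Ifitm3), and 2 higher and 4 lower with array weights. All called genes numbered 69 with the trend, 1130 with weights, 62 with the repeated normalisation, 133 with the filter, 7 with the replicate block and 383 at 0.10. The list's called probe sets were 2 higher and 6 lower with weights, 0 higher with the repeated normalisation, and 0 higher and 0 lower with the replicate block. Leaving out single arrays gave 0 to 4 higher and 0 to 3 lower genes of the list, 0 to 1182 called genes in all, and 0 to 5 higher and 0 to 5 lower probe sets. The list's median of -0.07 was -0.10 with the filter, which tested 22 of the 36 genes, and -0.10 on the mean of probe sets, and ran from -0.090 to 0.014 without single arrays. Robust variance and median centring moved none of these counts by over 1.5 times. Signs turned for genes that were not called with all 6 arrays. With array weights Bst2 was 0.19, Gbp2 -0.13, Ifit3 0.052, Iigp1 -0.18, Mx2 0.031 and Oas2 0.015, and with the repeated normalisation Oas2 was 0.034. On the mean over a gene's probe sets Gbp2 was -0.050, Iigp1 -0.095, Rsad2 -0.26, Samhd1 -0.022, Stat2 -0.064, Tapbp -0.45 and Trim21 -0.052. The cause of these changes was not tested. Without single arrays, signs also turned for 16 genes, whose values ran over these ranges: Adar -0.17 to 0.0048, Bst2 -0.33 to 0.13, Cxcl10 -0.0096 to 1.03, Gbp2 -0.26 to 0.28, Gbp3 -0.49 to 0.37, Ifit3 -0.22 to 0.032, Ifitm1 -1.04 to 0.16, Iigp1 -0.14 to 0.26, Irf7 -0.033 to 0.24, Mx2 -0.19 to 0.080, Oas2 -0.10 to 0.081, Rsad2 -0.020 to 0.37, Stat2 -0.066 to 0.21, Tapbp -0.074 to 0.048, Trim21 -0.070 to 0.45, Zbp1 -0.18 to 0.0096. Deviations of arrays with the same replicate number correlated at 0.06, 0.02 and 0.08. Each wild type array correlated best with the mutant array of its number, but mutant replicate 2 correlated best with wild type replicate 1 (0.04). Values this small, from 3 arrays a group, cannot show whether the samples were paired.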

Other observations

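A probe set annotated to both Isg15 and Gm9706 was not counted for either gene. It read 4.98, 6.0 and 5.80 on the mutant arrays, against 5.84, 5.80 and 5.72 on the wild type arrays (log2), a difference of -0.19 (95% confidence interval -0.76 to 0.38). As for Usp18 and Irf9, mutant replicate 1 was the lowest of the 6 arrays.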
